A study of Mus musculus with 32 samples.

Results

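Rab6b, the gene of a small GTPase of the Golgi, was followed through the lungs and tracheas of mice with and without Car6, with its close relative Rab6a beside it. The members were every probe that the array's annotation assigns to either symbol, which gave 1 probe for Rab6b (ILMN_2761430) and 3 for Rab6a (ILMN_1242802, ILMN_2699635 and ILMN_2825339), 2 of 16593 genes and 4 of 25697 probes on the array. Rab6b was chosen by its lung values, namely a level split among the wild-type lungs and low in Car6-/- lungs, so these values are given as a description, without a test. Rab6a was added for contrast. In the RefSeq table Rab6b lies on chromosome 9 and Rab6a on chromosome 7. Which part of each transcript the probes bind is not given in the sources used here.

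Lung RNA came from 6 Car6-/- and 8 wild-type mice and tracheal RNA from 6 Car6-/- and 8 wild-type mice. Per the labels all were C57BL/6 males aged 2 months, and the Car6-/- mice carried no intact copy of the gene for the carbonic anhydrase that is secreted into saliva. No other allele or treatment is named, the substrain is not given, and nothing in the labels ties the lung of a given number to the trachea of that number. RNA was amplified, labelled with biotin and hybridised to Illumina bead arrays, with a second array for 4 samples. P-values measure the spread between these samples.

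Rab GTPases switch between a GTP-bound form, which sits on a membrane and recruits motors and tethers, and a GDP-bound form held in the cytosol. Rab6a is found in most cells and acts in transport within the Golgi and between endosomes, Golgi and endoplasmic reticulum. Rab6b is encoded by a separate gene, resembles Rab6a closely as a protein, and is best known from brain, where neurons hold much of it.

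Between 11735 and 13139 probes were detected per array. Median signals lay between 92.4 and 118.3 and the lowest signals between 65.7 and 82.7, so that a probe near 100 lay close to background. Car6 was detected on 0 of 32 arrays, at signals of 79.4 to 100.9 in both genotypes, so the targeted gene does not check the genotype labels here. Lung was recognisable by its own markers: the mean log2 intensity of 9 alveolar genes was 12.28 to 12.47 in Car6-/- lung and 12.39 to 12.51 in wild-type lung. Tracheal wall markers (10 genes of basal cells and cartilage) averaged 7.40 to 8.84 in Car6-/- trachea and 8.70 to 9.63 in wild-type trachea, against 4.74 to 5.18 in all lungs. In alveolar markers Car6-/- tracheas 1 and 2 stood apart, at 10.54 and 10.96. The other Car6-/- tracheas had 7.01 to 8.30 and the wild-type tracheas 7.65 to 8.29. Skeletal muscle markers (9 genes) were also lower in these 2 samples, at 6.16 and 9.60. They were at 10.83 to 11.63 in the other Car6-/- tracheas and 11.51 to 12.42 in wild-type tracheas. Adipocyte markers (7 genes) were at 9.09, 8.42, 9.75 and 9.21 in Car6-/- tracheas 1, 2, 6 and 7. In Car6-/- tracheas 4 and 5 they were at 7.17 and 7.44, and in wild-type tracheas at 7.18 to 7.80. B cell markers (5 genes) were at 7.76 and 9.80 in Car6-/- tracheas 1 and 2. The other Car6-/- tracheas had 5.60 to 6.83 and the wild-type tracheas 5.22 to 5.64.

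Rab6b was present at a low level in all Car6-/- lungs and at either a low or a high level in wild-type lungs. Its raw signal in Car6-/- lungs 1, 2, 4, 5, 6 and 7 was 147.2, 143.3, 178.2, 152.9, 138.3 and 206.0. In wild-type lungs 1 to 8 it was 163.2, 168.4, 566.0, 373.3, 507.2, 502.3, 556.4 and 345.2. Wild-type lungs 1 and 2 thus lay inside the range of the Car6-/- lungs, and each of the other 6 lay above every Car6-/- lung. All 14 lungs passed the detection threshold (detection p-value under 0.01), so the low samples still gave a signal above the negative controls.

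The same samples were low after background correction and quantile normalization, on the log2 scale used from here on. Rab6b was at 6.25, 6.01, 6.38, 6.07, 6.11 and 6.93 in Car6-/- lungs 1, 2, 4, 5, 6 and 7. It was at 6.56, 6.75, 8.71, 8.65, 8.76, 8.46, 8.64 and 8.39 in wild-type lungs 1 to 8. The 6 higher wild-type lungs spanned 8.39 to 8.76, and a gap of 1.65 separated the lowest of them from wild-type lung 2. The second array of wild-type lung 2 read 6.71 where the first read 6.79, and for Car6-/- lung 1 the second array read 6.11 and the first 6.38. The mean was 6.29 ± 0.34 in Car6-/- lung (SD, n = 6) and 8.12 ± 0.91 in wild-type lung (SD, n = 8). Because wild-type lungs 1 and 2 lower it, the wild-type mean falls inside the gap, where no wild-type lung lay. The difference of -1.82 ± 0.34 (SE), a level 3.54-fold lower in Car6-/- lung, is the contrast on which the gene was chosen and carries no test.

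**Figure D1:**
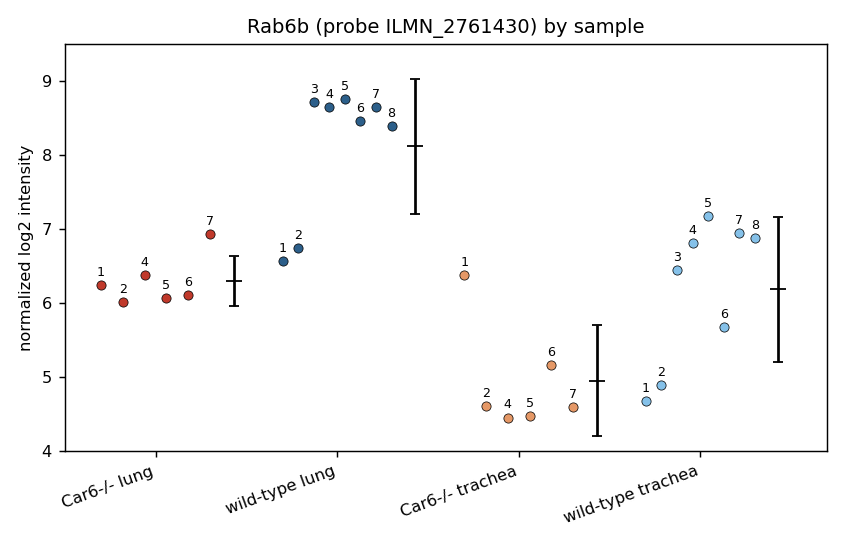
Rab6b in each sample as normalized log2 intensity (vertical axis) for the 4 groups (horizontal axis). Points are samples with their label numbers, and the bars beside them are the mean ± SD. Wild-type lungs 1 and 2, at 6.56 and 6.75, sit at the height of the Car6-/- lungs, and the other wild-type lungs lie between 8.39 and 8.76.

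Within wild-type lung Rab6b had one of the wider spreads on the array. Its SD of 0.912 ranked 49th of 8730 genes tested in lung and was 5.39 times the median SD of 0.169. The gap of 1.65 ranked 23rd among the widest gaps of these genes, whose median was 0.178. A gap of at least 1 was found in 64 genes, and in 1 of them, Rab6b itself, it set wild-type lungs 1 and 2 below the other 6. With gaps of any size, 89 genes (1.02%) had their widest gap between these same 2 samples and the other 6, and in 50 of them the 2 samples were the lower ones.

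In trachea Rab6b was dimmer and again uneven among wild-type samples. Raw signals in Car6-/- tracheas 1, 2, 4, 5, 6 and 7 were 145.6, 98.7, 90.7, 98.7, 115.0 and 111.2. In wild-type tracheas 1 to 8 they were 94.8, 113.5, 154.5, 189.5, 199.0, 118.1, 184.6 and 201.0. The probe was detected in 2 of 6 Car6-/- tracheas and 6 of 8 wild-type tracheas. The undetected samples included wild-type tracheas 1 and 2, which bear the numbers of the 2 low wild-type lungs.

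On the log2 scale Rab6b was at 6.38, 4.60, 4.45, 4.48, 5.17 and 4.60 in Car6-/- tracheas 1, 2, 4, 5, 6 and 7. It was at 4.68, 4.89, 6.44, 6.82, 7.17, 5.68, 6.95 and 6.88 in wild-type tracheas 1 to 8. The groups overlapped: 3 wild-type tracheas lay below Car6-/- trachea 1, and wild-type tracheas 1 and 2 lay below Car6-/- trachea 6 as well. The wild-type values did not fall into 2 tight levels as in lung, since the widest gap was 0.79, between wild-type tracheas 2 and 6, and ranked 645th of 9033 genes. The second array of wild-type trachea 2 read 4.96 and the first 4.83, and for Car6-/- trachea 5 the second read 4.51 and the first 4.45.

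**Figure D2:**
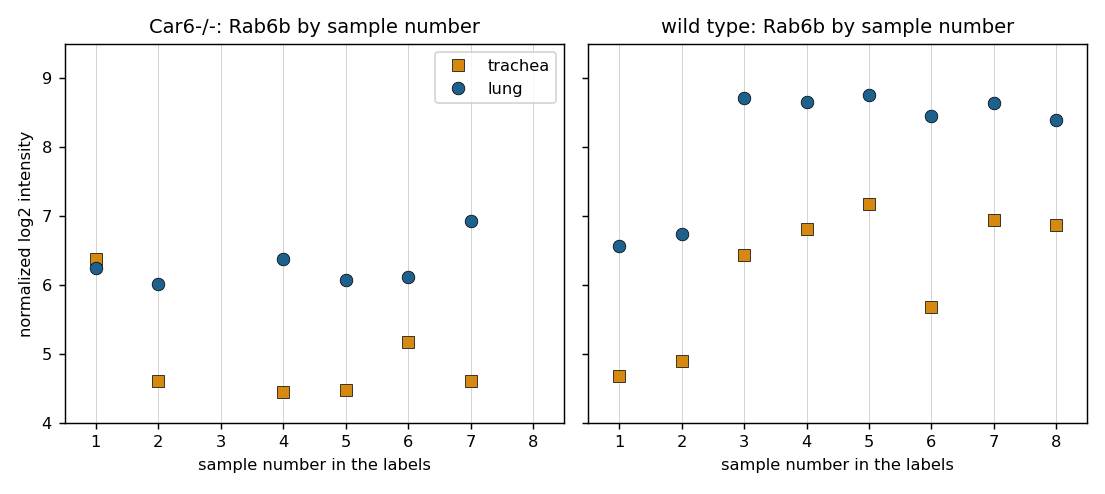
Rab6b as normalized log2 intensity (vertical axis) by the sample number in the labels (horizontal axis), Car6-/- on the left and wild type on the right. Squares are tracheas and circles lungs. Wild-type samples 1 and 2 are the lowest in both tissues, at 4.68 and 4.89 in trachea and 6.56 and 6.75 in lung.

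The genotype comparison in trachea uses samples on which the gene was not chosen, although they may come from the same animals. Rab6b averaged 4.95 ± 0.75 in Car6-/- trachea (SD, n = 6) and 6.19 ± 0.98 in wild-type trachea (SD, n = 8). The difference was -1.24 ± 0.44 (SE, 95% confidence interval -2.17 to -0.31), and it did not pass the threshold after adjustment over all 12736 probes tested (limma, Benjamini-Hochberg adjusted p = 0.195, unadjusted p = 0.0126). An exact two-sided permutation test over the 3003 splits of the 14 tracheas gave p = 0.0293 for this probe alone. The wild-type tracheas alone brought the probe to the 6 detected samples required for testing. Signal was missing in Car6-/- tracheas 2, 4, 5 and 7 and in wild-type tracheas 1 and 2, whose values lie within background. The limma and permutation p-values therefore largely set samples with a signal against samples without one. In the limma comparison of genotypes in trachea 0% of probes were called (0 of 12736), and 2098 had an unadjusted p under 0.05. In lung the figure was likewise 0% (0 of 12367), with 1096 at an unadjusted p under 0.05.

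The size of the tracheal difference depended on the processing: without background correction it was -0.53 (adjusted p = 0.217), and in the authors' deposited table, normalized within each tissue and also not background-corrected, it was -0.51 (adjusted p = 0.217). Without Car6-/- trachea 1, the highest of its group, the difference was -1.53 (adjusted p = 0.319). That sample had cardiac muscle markers (6 genes) at 12.85, against 6.44 to 10.27 in the other Car6-/- tracheas and 6.46 to 6.87 in wild-type tracheas. Thyroid markers (7 genes) were at 4.52 to 9.13 in Car6-/- tracheas and at 8.03 to 9.30 in wild-type tracheas. The 2 Car6-/- tracheas with the most thyroid signal, 4 and 5, had Rab6b at 4.45 and 4.48. The probe was undetected in both and in Car6-/- tracheas 2 and 7 (4.60 each), so the order among them lies within background. The part of these other tissues, and of adipocytes and B cells, in the result was not tested. In such whole-tissue RNA, fewer cells of a type and less RNA per cell cannot be told apart.

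Across the tissues, trachea gave less Rab6b than lung in both genotypes, as a description, since the lung values chose the gene. Trachea minus lung was -1.34 ± 0.44 (SE) in Car6-/- mice and -1.93 ± 0.38 in wild-type mice. Ordered by group mean, wild-type lung came first, followed by Car6-/- lung at 6.29 and wild-type trachea at 6.19, whose difference lay within the spread of either group, and Car6-/- trachea last. The order of the groups hides the overlap between samples: wild-type tracheas 4, 5, 7 and 8, at 6.82 to 7.17, were higher than wild-type lungs 1 and 2.

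Rab6a showed no such split. On its brightest probe, ILMN_1242802, Car6-/- lungs ranged from 7.45 to 7.86 with a median of 7.72 and wild-type lungs from 7.31 to 7.96 with a median of 7.63. Wild-type lungs 1 and 2, at 7.31 and 7.55, were not the lowest pair of their group, since wild-type lung 3, one of the highest in Rab6b, lay between them at 7.39. The lung difference was 0.051 ± 0.11 (SE), from 7.70 ± 0.14 in Car6-/- (SD, n = 6) and 7.65 ± 0.24 in wild type (SD, n = 8), given without a test like that of Rab6b.

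Both dimmer Rab6a probes also lay close together in lung. ILMN_2699635 was at 6.23 ± 0.11 in Car6-/- lung and 6.13 ± 0.077 in wild-type lung (SD, n = 6 and 8), a difference of 0.10 ± 0.065. ILMN_2825339 was at 5.41 ± 0.19 in Car6-/- lung and 5.28 ± 0.37 in wild-type lung, a difference of 0.13 ± 0.15, and was detected in 6 of 8 wild-type lungs. On neither probe were wild-type lungs 1 and 2 the lowest pair of their group.

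In trachea Rab6a did not pass the test between genotypes on any probe. ILMN_1242802 ranged from 7.16 to 7.76 with a median of 7.25 in Car6-/- tracheas and from 7.26 to 8.08 with a median of 7.71 in wild-type tracheas, and the groups overlapped. Its difference was -0.30 ± 0.14 (limma adjusted p = 0.304, 95% confidence interval -0.61 to 0.00095), and an exact two-sided permutation test gave p = 0.0549. The differences on ILMN_2699635 and ILMN_2825339 were -0.023 ± 0.12 (adjusted p = 0.937, interval -0.29 to 0.24) and -0.044 ± 0.12 (adjusted p = 0.871, interval -0.29 to 0.20). The genotype effect on Rab6a was not shown to differ between trachea and lung on any of the 3 probes (limma interaction, adjusted p = 0.395, 0.717 and 0.728).

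Between the tissues the Rab6a probes passed the test to a differing extent. On ILMN_2699635 trachea was lower than lung: the difference was -0.58 ± 0.10 in Car6-/- mice (limma adjusted p = 2.25e-05) and -0.46 ± 0.088 in wild-type mice (adjusted p = 5.45e-05). ILMN_2825339 gave -0.41 ± 0.15 in Car6-/- (adjusted p = 0.0218) and -0.23 ± 0.13 in wild type (adjusted p = 0.109), and ILMN_1242802 gave -0.31 ± 0.14 in Car6-/- (adjusted p = 0.0559) and 0.043 ± 0.12 in wild type (adjusted p = 0.762), where the sign turned with median scaling (-0.085) and in the authors' deposited table (-0.050). These stand against a background in which 51.3% of 13945 probes were called between tissues in Car6-/- mice and 63.7% in wild-type mice, so that a call here is common. The levels of the 3 probes are not comparable with each other or with that of Rab6b, since each probe has its own brightness.

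**Figure D3:**
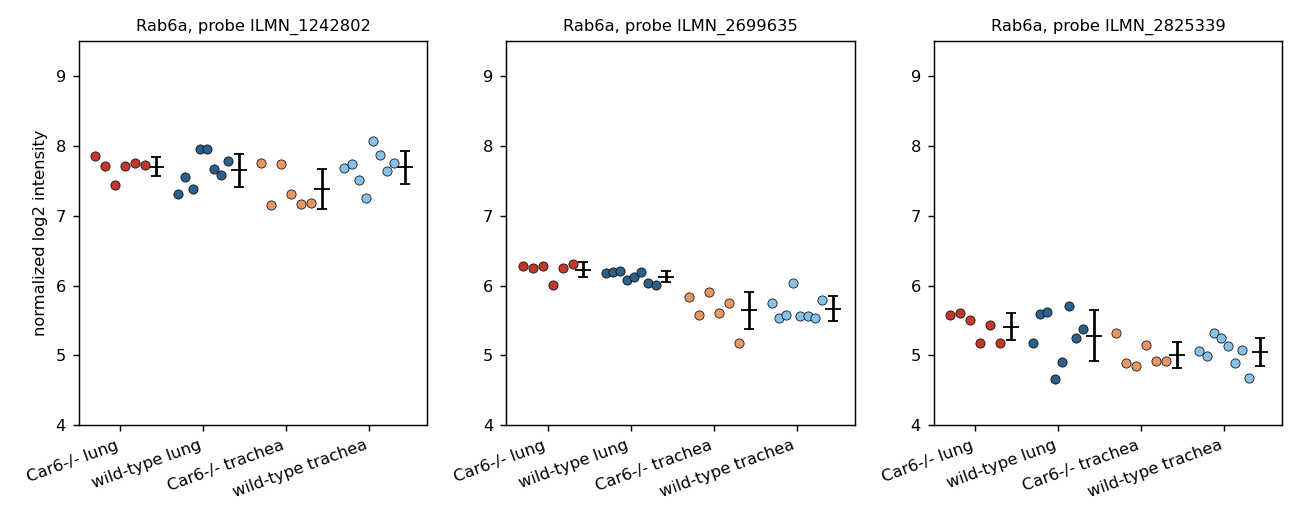
The 3 Rab6a probes, 1 panel each, as normalized log2 intensity by sample (points) with the mean ± SD of each group beside them. Wild-type lungs form no separate low pair on any probe. On ILMN_2699635 the means are 5.64 in Car6-/- trachea and 5.67 in wild-type trachea, against 6.23 in Car6-/- lung and 6.13 in wild-type lung.

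The other Rab GTPases are set beside the pair. Of 57 Rab genes on the array 44 were tested in lung, and without Rab6b and Rab6a their SDs within wild-type lung were 0.050 to 0.340, with a median of 0.143 where all genes had 0.169. The Rab genes with the largest SDs after Rab6b, chosen after their values were seen, were Rab44 with 0.340, Rab23 with 0.246 and Rab6a with 0.241. As Rab6b was chosen for its spread, and 99.4% of all genes tested had a smaller SD, its place among the Rab genes is a description. Between genotypes 0 of 42 other Rab genes were called in lung and 0 of 41 in trachea. By limma's unadjusted p under 0.05, 2 were higher and 1 lower in lung, and 2 higher and 4 lower in trachea. The same counts over all probes were 584 higher and 512 lower of 12367 in lung, and 1120 higher and 978 lower of 12736 in trachea. Besides Rab6b, those with the smallest p in trachea were Rab3d, a GTPase of secretory granules (-0.49 ± 0.16, adjusted p = 0.169), Rab32, which acts in lysosome-related organelles (0.48 ± 0.17, adjusted p = 0.202), and Rab15, an endosomal Rab (-0.65 ± 0.24, adjusted p = 0.206), none past the threshold.

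Of the other Rabs of the Golgi and the secretory route, 15 were tested in lung. The 3 with the largest SD in wild-type lung were Rab39b (0.237), Rab19 (0.220) and Rab12 (0.215), and in the genotype comparisons 0 of 15 were called in lung and 0 of 14 in trachea. Their median differences were -0.028 in lung and -0.018 in trachea, where all genes had medians of -0.0031 and 0.036. Rab8b, of transport from the Golgi to the cell surface, differed by 0.46 ± 0.18 in trachea (adjusted p = 0.222) and Rab1a, of transport from endoplasmic reticulum to Golgi, by -0.39 ± 0.20 (adjusted p = 0.346). Rab34 differed by 0.27 ± 0.15 and Rab18, of lipid droplets, by -0.15 ± 0.095 (adjusted p = 0.381 and 0.430). Between the tissues 1 of 15 was higher and 8 were lower in trachea in wild-type mice, with a median of -0.31, against 28.1% and 35.5% of all probes. In Car6-/- mice 1 was higher and 8 were lower, against 23.1% and 28.2% of all probes.

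The list of known partners of Rab6 proteins held 40 genes of effectors, motors, tethers, exchange factors and GTPase activators, of which 33 were on the array and 23 were tested in each tissue. Within wild-type lung the largest SDs were those of Dennd5b (0.283), of a family of exchange factors, Erc2 (0.275), a scaffold of synaptic release sites, and Sgsm1 (0.264), a GTPase activator that binds Rabs. Pearson's r of the partners with Rab6b over the 8 wild-type lungs ran from -0.76 to 0.52 with a median of -0.26. These r rest mostly on the difference between 2 samples and the other 6 and are given as a description.

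No partner was called between genotypes (0 of 23 in lung and in trachea). The median differences were 0.065 in lung and -0.028 in trachea. By limma's unadjusted p under 0.05, 2 were higher and 2 lower in lung and 0 higher and 3 lower in trachea. Over all probes 584 of 12367 were higher and 512 lower in lung, and 1120 of 12736 higher and 978 lower in trachea. The smallest p in trachea belonged to Vps53, of the tethering complex GARP (-0.36 ± 0.13, adjusted p = 0.205), Golga4, a Golgi tether (-0.41 ± 0.16, adjusted p = 0.235), Cog6, of the COG tethering complex (-0.39 ± 0.16, adjusted p = 0.235), and Mical3, an actin-oxidising effector (0.34 ± 0.16, adjusted p = 0.315). Between the tissues 4 of 25 were higher and 12 lower in trachea in wild-type mice, against 28.1% and 35.5% of all probes. In Car6-/- mice 4 were higher and 11 lower, against 23.1% and 28.2% of all probes.

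**Figure D4:**
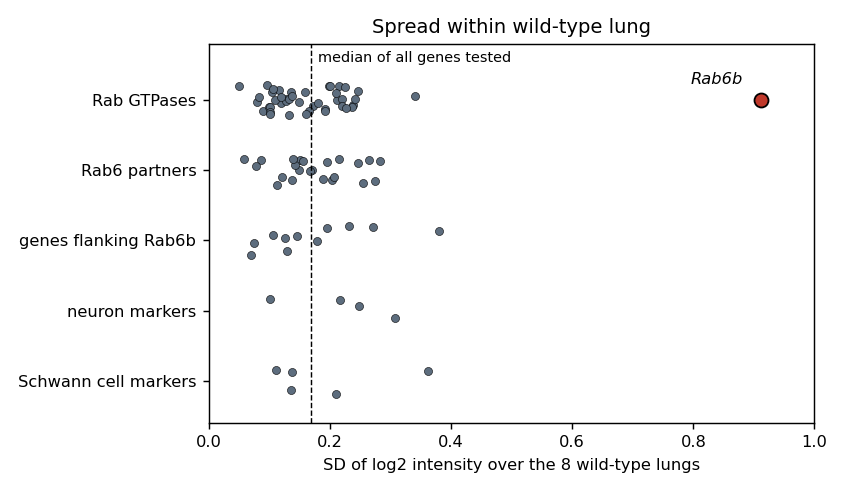
The SD of log2 intensity over the 8 wild-type lungs (horizontal axis) for Rab GTPases, Rab6 partners, genes flanking Rab6b, neuron markers and Schwann cell markers (rows), 1 point a gene, with vertical jitter. The dashed line is the median of all genes tested, 0.169. Rab6b, in red at 0.912, lies to the right of the other genes of these 5 lists, having been chosen for its spread.

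Since Rab6b is known from neurons, markers of nerve and neuroendocrine cells were set beside it. Nerve markers (5 genes in the score) averaged 6.16 to 6.51 in Car6-/- lung and 6.19 to 6.40 in wild-type lung. Schwann cell markers (6 genes) averaged 7.28 to 7.42 in Car6-/- lung and 7.17 to 7.41 in wild-type lung. Of 20 nerve markers 4 were tested in lung, and Syp, a synaptic vesicle protein, had the highest r with Rab6b, 0.84. Its values were 6.17, 6.15, 6.75, 6.48, 6.44, 6.43, 6.60 and 6.67 in wild-type lungs 1 to 8, with lungs 1 and 2 the lowest. The other 3 had r of -0.18 to 0.19, among them Stmn2 (0.070), a tubulin-binding protein, and Uchl1 (0.19), a neuronal deubiquitinase. Between genotypes in lung Syp differed by -0.018 ± 0.099 (SE), unlike Rab6b. The 5 Schwann cell markers tested in lung had r of -0.63 to 0.52, with a median of -0.55. The 3 neuroendocrine markers tested there, Syp among them, had r of -0.65 to 0.84, with a median of -0.43.

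In trachea 0 of 4 nerve, 0 of 6 Schwann cell and 0 of 6 neuroendocrine markers were called between genotypes. Scg2, a granin of secretory granules, differed by -2.10 ± 0.73 (adjusted p = 0.192) and Scg5, a granule chaperone, by -2.51 ± 0.80 (adjusted p = 0.168). Syp differed by 0.48 ± 0.23 (adjusted p = 0.301), Resp18, an endocrine secretory protein, by -1.21 ± 0.47 (adjusted p = 0.223) and Chga, the granin chromogranin A, by -2.89 ± 1.36 (adjusted p = 0.306). Stmn2 and Uchl1 differed by 0.56 ± 0.29 and 0.25 ± 0.23, while the Schwann cell genes Egr2, Mbp, Cnp and Pmp22 differed by 0.64 ± 0.21, 0.65 ± 0.22, 0.46 ± 0.17 and 0.33 ± 0.16 (adjusted p = 0.173 to 0.595 for these 6). Neuroendocrine markers (6 genes) averaged 5.05 to 7.87 in Car6-/- trachea and 6.35 to 8.07 in wild-type trachea, and were highest among Car6-/- tracheas in 4 and 5. Thyroid markers were highest in the same 2 Car6-/- tracheas, at 8.73 and 9.13. Rab6b was undetected in these 2 samples, as in Car6-/- tracheas 2 and 7. The part of neuroendocrine cells in the Rab6b values was not tested, nor was that of thyroid tissue in these marker values.

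Of the 20 genes that flank Rab6b on chromosome 9, 10 on each side, 15 were on the array and 11 were tested in lung, with SDs in wild-type lung of 0.069 to 0.380 and none over 0.5, beside a median of 0.169 over all genes. The nearest on one side, Slco2a1, a prostaglandin transporter, had an SD of 0.074 and an r with Rab6b of 0.28, and the nearest on the other, Srprb, a subunit of the signal recognition particle receptor, had 0.126 and 0.49. Over all 11 the r with Rab6b ran from -0.84 to 0.71, with a median of -0.012. Of these genes 0 of 11 were called between genotypes in lung and 0 of 11 in trachea. In Ky, a muscle gene with the largest SD of the list, named after its values were seen, the tracheal difference was -1.67 ± 0.48 (adjusted p = 0.154).

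The labels name the strain C57BL/6 without its substrain. Of 6 genes reported to differ between C57BL/6 substrains, 3 were tested in lung (Entpd4, Ide and Fgfbp3), and 0 of 3 were called between genotypes in lung or in trachea. Their r with Rab6b over the wild-type lungs were -0.32, -0.0083 and -0.040.

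The genes whose levels followed Rab6b most closely over the 8 wild-type lungs were ranked by Pearson r among 8729 other genes tested in lung. An r over 0.9 was reached by 11 genes (0.126%) and an r under -0.9 by 11 (0.126%). The samples fall into a low pair and 6 higher ones, so a high r says chiefly that a gene set the same pair apart, and all values come from the same 8 libraries. The 10 highest had r of 0.91 to 0.97 and SDs of 0.103 to 0.378.

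Eci2, an enzyme of fatty acid oxidation, ranked first with an r of 0.97. Its values in wild-type lungs 1 to 8 were 8.00, 8.00, 8.89, 8.94, 8.68, 8.75, 8.73 and 8.78, so it too parted lungs 1 and 2 from the rest. In Car6-/- lungs it ranged from 8.26 to 8.89, a range that lay within that of the wild-type lungs, unlike Rab6b. In wild-type tracheas 1 to 8, which the ranking did not use, it was at 8.37, 8.34, 9.27, 9.22, 8.99, 9.30, 8.91 and 8.76, again with 1 and 2 the lowest, and its r with Rab6b there was 0.62.

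Rnf139, a ubiquitin ligase of the endoplasmic reticulum, had an r of 0.96 in wild-type lung. It was dim, at 4.80, 4.82, 5.34, 5.30, 5.24, 5.21, 5.21 and 5.09 in wild-type lungs 1 to 8, and was detected in 5 of 8. Its r with Rab6b was 0.80 in wild-type trachea, where 1 and 2 again were the lowest, at 4.63 and 4.81, and 0.79 within the 6 higher wild-type lungs. In trachea Rnf139 was detected in 5 of 8 wild-type and 0 of 6 Car6-/- samples. As Rab6b was undetected in wild-type tracheas 1 and 2, the order there lies near background. Gria3, a subunit of AMPA-type glutamate receptors, had an r of 0.95 in wild-type lung. Its r was -0.30 in wild-type trachea, where it was detected in 4 of 8 samples, so its likeness to Rab6b did not extend to that group. In Car6-/- trachea, where Rab6b was detected in 2 of 6 samples, the r of Gria3 was 0.76.

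Agtrap, a protein that binds the angiotensin type 1 receptor, had an r of 0.91 in wild-type lung and 0.66 in wild-type trachea. It was at 8.44, 7.69, 8.70, 8.54, 8.54 and 8.64 in Car6-/- lungs 1, 2, 4, 5, 6 and 7 and at 8.77, 8.51, 9.27, 9.36, 9.48, 9.10, 9.13 and 9.14 in wild-type lungs 1 to 8. As with Rab6b, wild-type lungs 1 and 2 were the lowest of their group, but here lung 1 as well as the other 6 lay above every Car6-/- lung. In trachea it differed by -0.50 ± 0.14 between genotypes and did not pass the test (limma adjusted p = 0.154). Agtrap lies on chromosome 4, as does the targeted gene Car6, and the part of this position in its values was not tested.

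The other followers were H2bc15, a histone H2B (0.94), Lzts3, a protein of the postsynaptic density (0.92), Crispld2, a secreted protein (0.92), Kifc3, a kinesin that moves to microtubule minus ends (0.91), Ptges, a prostaglandin E synthase (0.91), and Gpx3, a secreted glutathione peroxidase (0.91). Within the 6 higher wild-type lungs the r of the 10 genes with Rab6b ran from -0.95 to 0.79, lowest for Ptges, so the likeness of most did not hold there. In wild-type trachea 5 of 10 had a positive r, as did 45.1% of all genes, and in Car6-/- lung 6 of 10, against 52.7% of all genes. In Car6-/- trachea all 10 had a positive r (0.0099 to 0.76), as did 54% of all genes. Rab6b was detected in only 2 of these 6 tracheas, and Car6-/- trachea 1 (6.38) stood far above the next (5.17). These r therefore rest on few samples above background. No gene with an r over 0.9 in wild-type lung also had one in wild-type trachea (0 of 11, and 0 of the 4 found there). Since only 4 of all 8729 genes had such an r in wild-type trachea, this 0 says little about the followers. Of the 9 followers tested in trachea, none was called between genotypes (adjusted p = 0.154 to 0.933).

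**Figure D5:**
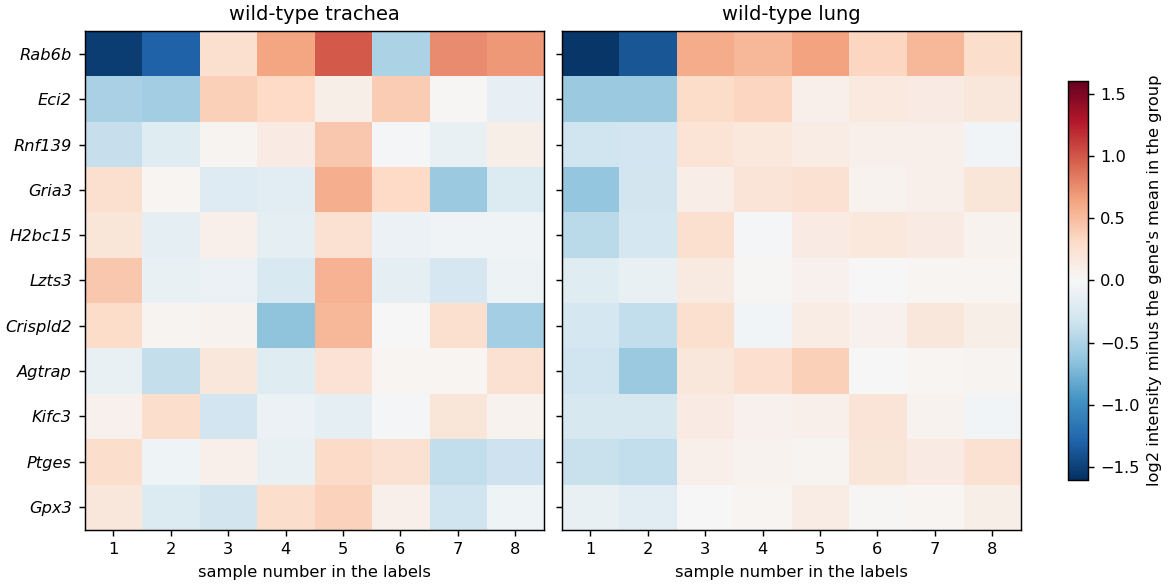
Rab6b and the 10 genes with the highest r to it in wild-type lung (rows), as log2 intensity minus the gene's mean in the group (colour), by sample number in wild-type trachea (left) and wild-type lung (right). Lung columns 1 and 2 are blue in every row, as the ranking on these lungs implies. In trachea columns 1 and 2 are both blue in Rab6b, Eci2, Rnf139 and Agtrap, and not both blue in the other rows.

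The 5 genes with the lowest r were Rpp14, a ribonuclease P subunit (-0.96), Slc23a2, a vitamin C transporter (-0.95), Pkp2, a desmosome protein (-0.95), Idh2, the mitochondrial isocitrate dehydrogenase (-0.94), and Prpf40b, a splicing factor (-0.94). Their SDs in wild-type lung were 0.101 to 0.250. All 5 had a negative r in wild-type trachea (-0.65 to -0.082), where only 45.1% of all genes had a positive one. In Car6-/- lung 1 of 5 had a negative r, and in Car6-/- trachea 1 of 5, where 52.7% and 54.0% of all genes had a positive one. None of the 5 was called between genotypes in trachea (adjusted p = 0.558 to 0.856). Of these 15 genes none lies on chromosome 9.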

How the data were processed

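RNA of 28 samples was measured on 32 Illumina arrays. One table deposited by the authors gives linear-scale intensity per probe and array, without background subtraction or normalization, and, per the file headers, a detection p-value for each intensity. A second deposited table holds log2 values, which equal log2 intensity after quantile normalization within each tissue (100% within 0.01). The scanner software is not given in the sources used here, nor are chip numbers. There were 0 columns of samples outside the labels.

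In R 4.3.3, limma 3.58.1 corrected background (nec with the detection p-values and an offset of 16) and quantile-normalized the arrays together before log2. The 2 arrays of a sample were averaged. Probes with a detection p-value under 0.01 in 6 or more of the compared samples were tested. Of 25697 probes, 23978 carried 1 gene symbol, 0 several and 1719 none, and 23962 had a gene number in the RefSeq table (GRCm38.p6), used only for names and gene order. Models (lmFit and eBayes) covered all probes tested, with Benjamini-Hochberg adjustment over all of them and calls at an adjusted p under 0.05; the lung differences of Rab6b and Rab6a, and Rab6b's difference between tissues, are given without a p. For lists, spreads and r, the probe with the highest mean stood for a gene. A list's score is the mean log2 intensity of its tested members. The number of arrays limits the precision.

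Members and lists were chosen with earlier results of these data known. Named genes are Rab6b, Rab6a, Car6, the 10 genes with the highest and the 5 with the lowest r with Rab6b in wild-type lung, up to 4 members per list with the smallest p in trachea, the 3 partners and 3 Golgi Rabs with the largest SD in wild-type lung, and neighbours with an SD over 0.5 or nearest to Rab6b; others are marked. The procedure was tested on simulated data. The correlations of the deviations of same-numbered samples ran from -0.28 to 0.54. Those over 0.1 were 0 of 8 wild-type and 0 of 6 Car6-/- pairs of trachea and lung, 0 of 6 pairs of Car6-/- and wild-type lung and 3 of 6 pairs of Car6-/- and wild-type trachea, so samples were treated as unpaired. Alternatives were no background correction, median scaling, the authors' log2 table, no detection filter, first arrays only, a replicate block, leaving out samples, an exact permutation test and Spearman's rho, and, added after seeing the data, 1 probe per gene and the exact test of the dimmer Rab6a probes.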

Additional observations from a re-analysis of the deposited data

Results flagged for a closer look

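Of 16 combinations of probe and group tested for a sample far from the others of its group, 3 had one, where chance gives about 1 in 20. Rab6b in Car6-/- trachea 1 was at 6.38, with the next Car6-/- trachea at 5.17. This sample also had the highest cardiac muscle marker level of the Car6-/- tracheas, 12.85, an alveolar marker level of 10.54 and the lowest skeletal muscle marker level, 6.16, and their part in its Rab6b value was not tested. Rab6a on ILMN_1242802 was at 7.45 in Car6-/- lung 4, with the next Car6-/- lung at 7.71. Rab6a on ILMN_2699635 was at 6.01 in Car6-/- lung 5, with the next at 6.25.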

How the results depend on the processing

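The lung difference of Rab6b kept its direction under all 20 alternatives (-2.05 to -1.24), as did its tracheal difference under 22 (-1.68 to -0.51). The exact permutation test in trachea (-1.24, p = 0.0293) was not adjusted over probes, nor was limma's p = 0.0126 given above. Both include tracheas in which Rab6b was undetected. By limma's adjusted p (0.151 to 0.953 under the other alternatives) Rab6b was not called in trachea under any setting. Its tracheal difference was -1.53 to -1.10 when 1 sample was left out and -1.68 without Car6-/- tracheas 1, 2 and 6. Over the probes tested, sample numbers gave no sign of pairing between the tissues, but this check cannot show that no animal was shared. In it, 1 of 8 wild-type and 1 of 6 Car6-/- tracheas correlated best with the lung of its own number. The replicate block matched Car6-/- and wild-type samples of the same number. With it Rab6b differed by -1.68 in lung and by -1.08 in trachea (limma adjusted p = 0.365), and 0 probes were called in trachea. Probes called in lung numbered 0, against 2 with 1 probe per gene, 6 without background correction and 6 in the authors' table. When 1 sample was left out they numbered 0 to 36 (36 without Car6-/- lung 7, 5 without wild-type lung 1, 2 without wild-type lung 2). In trachea the count was 0, and 0 to 772 when 1 sample was left out (772 without Car6-/- trachea 4, 1 without Car6-/- trachea 5). Of the 10 genes that followed Rab6b, 3 stayed among the 10 with median scaling, 1 by Spearman's rho and 3 to 7 when 1 wild-type lung was left out (3 without lung 2 or 7). Rnf139 stayed in all 14 alternatives, Eci2 and Gria3 in 13, Agtrap in 4 and Ptges in 3. For Rab6a on ILMN_1242802, trachea minus lung in Car6-/- mice passed the threshold with median scaling (-0.47, adjusted p = 0.00161), in the authors' table (-0.29, adjusted p = 0.0110) and with first arrays only (-0.36, adjusted p = 0.0397), and was -0.39 to -0.27 when 1 sample was left out (adjusted p = 0.0194 to 0.119). In wild-type mice it reversed with median scaling (-0.085) and in the authors' table (-0.050), and was -0.012 to 0.11 when 1 sample was left out. The tracheal difference of ILMN_2699635 reversed with first arrays only (0.028) and was -0.075 to 0.071 when 1 sample was left out. The cause of these changes was not tested.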
